A study of Mus musculus with 8 samples.

Results

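A set of 9 transcription regulators of skeletal muscle was followed over all alternative polyadenylation sites (APSs) assigned to them. The tissue was gastrocnemius, a mixed hindlimb muscle, from knockout (KO) mice that lack AMPKα1 or AMPKα2. The regulators are the myogenic factors Myod1, Myog and Myf6, the MEF2 factors Mef2a, Mef2c and Mef2d, the partners Six4 and Eya4, and the homeobox factor Prox1. Members were chosen by gene symbol alone, and 95 of the 56483 APSs in the table carried 1 of these symbols. The 95 APSs belonged to 8 of the 15349 gene symbols, because no APS of Myog was analysed here. An APS is a position at which read ends cluster, taken by the study as a place where transcripts are cleaved and given a poly(A) tail.

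The study removed the catalytic α1 or α2 subunit of the AMP-activated protein kinase, an energy sensor, and profiled 2 KO and 2 wild-type (WT) male mice per model, with 1 library per mouse. The AMPKα1 KO mice (AMPKα1-/-) were 129S2/SvPas animals of about 6 weeks according to the methods, and the AMPKα2 KO mice (AMPKα2-/-) were C57BL/6 animals of about 8 weeks, whereas the sample labels name C57BL/6 and the adult stage for all 8 mice. No age is given for the WT controls. Both deletions were carried in the whole body and removed part of the catalytic domain, so effects in fibres and in other cells of the muscle cannot be told apart. WTTS-seq, which sequences the 3′ ends of polyadenylated RNA, gave whole reads per APS. Values below are either such reads or CPM, which are reads scaled to a common library size with edgeR's TMM factors over the 8 libraries. They are not divided by transcript length, because the method is designed to read each transcript at its end and not along its body.

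Myogenic regulatory factors are basic helix-loop-helix proteins that bind E boxes with E protein partners. Myod1 acts in activated satellite cells, Myog drives their differentiation, and Myf6 is the family member that stays abundant in mature fibres. MEF2 factors are MADS box proteins that bind A and T rich elements in muscle promoters together with these factors, and class IIa histone deacetylases keep them inactive until kinases release them. Six4 and its coactivator Eya4 act upstream of the myogenic factors and on fast fibre genes, and Prox1 is known from slow fibres and from lymphatic endothelium.

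The bases ahead of an APS often hold a polyadenylation hexamer, and they are shown for the sites on which the results turn. The first 5 sites below show a hexamer, and the last 5 are strong Mef2c and Mef2d sites whose windows hold neither. Each run is the 30 transcript bases that end at the APS, 5′ to 3′, from GENCODE release 21 transcripts on GRCm38, with a polyadenylation hexamer (AATAAA, or ATTAAA where AATAAA is missing, read strand only) in capitals.
Myod1 chr7:46379098: gtgttggaAATAAAgacgctaatttataca
Myf6 chr10:107492852: atATTAAAatattaatacgtttctacatgt
Six4 chr12:73099609: ctatgctaAATAAActttatatttatacat
Mef2d chr3:88172059: atatttgttgtaaagaggtttactATTAAA
Mef2c chr13:83666344: ttgaaccttcAATAAAggctgttgcctaaa
Mef2c chr13:83667081: tcagtaaagttactggctttcttagtgata
Mef2c chr13:83662735: gtcgatatgcattatatgtgccgtgtgtgg
Mef2c chr13:83663255: gagaagaaaggaaaggaaaggaaagggaaa
Mef2c chr13:83575632: aaacaggaaagagaaagaaaaggaaggaaa
Mef2d chr3:88169933: taataatgactcaaatggcccgtactgtac

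Such a window could be read for 38 of the 95 APSs. In these the base before the APS lies in an annotated exon of the gene, with 30 spliced transcript bases up to it. AATAAA was found in 7 of them and ATTAAA without AATAAA in 2 more. The hexamer of Mef2d chr3:88172059 starts at -6 from the APS, whereas those of the other hexamer sites printed above start between -28 and -20. Over all 21021 APSs with a window, 32.6% held AATAAA and 9.59% held ATTAAA without AATAAA. The window of Mef2c chr13:83663255 consists of A and G at 30 of 30 positions, and that of Mef2c chr13:83575632 at 29 of 30. The absence of the 2 hexamers says only that these letters are not in the window.

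The libraries held 2311242 to 3549156 reads. The libraries of the models were unlike in composition. The 10 strongest APSs took 16.7% to 22.3% of reads in the 4 AMPKα1 libraries and 40.1% to 50.5% in the 4 AMPKα2 libraries. Scaled by library totals alone, the 8 genes together had 2293 to 2808 CPM in AMPKα1 and 359 to 629 CPM in AMPKα2. Genotypes were therefore compared within a model. A level of 3 reads in a library was used as the detection limit. That limit and the binomial intervals describe counting error alone, since reads without molecular identifiers can be copies of the same molecule. The targeted genes were not used to check the labels, since where their APSs lie relative to the deleted part was not examined. Prkaa1, which encodes AMPKα1, had 0 and 82 reads in AMPKα1 KO and 15 and 0 in AMPKα1 WT, and Prkaa2 had 40 and 71 reads in AMPKα2 KO and 87 and 62 in AMPKα2 WT. All 6 skeletal muscle fibre markers looked for had reads, and of the satellite cell markers Myf5 and Calcr were at 0 in every library.

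No member tested passed the comparison of KO with WT in either model at gene level, and Mef2c and Mef2d were the most abundant of them in every group (plot of the levels by library). In AMPKα1 mice, 0 of 8 genes passed edgeR's quasi-likelihood test at an adjusted p under 0.1, where 0% of all 13924 genes tested were called. In AMPKα2 mice, 0 of 7 genes passed, where 0.484% of all 10536 genes were called. At an unadjusted p under 0.05, edgeR named 1 member in AMPKα1 (Eya4) and 0 in AMPKα2, beside 4.23% and 8.45% of all genes. DESeq2 called 0 members in each model, where it called 0.787% and 0.508% of all genes with a read, and it named 0 at an unadjusted p under 0.05, beside 6.79% and 2.8% of them. It gave no adjusted p for Prox1 in AMPKα1 or for Myod1 and Prox1 in AMPKα2, so it could not call them there. The median log2 fold change of KO over WT was 0.10 over the 8 genes in AMPKα1, with all genes tested at -0.03, and 0.07 over the 7 genes in AMPKα2, with all genes tested at -0.01. The biological coefficient of variation over genes was 104% in AMPKα1 and 26.2% in AMPKα2, so differences in AMPKα1 were measured with far less precision. For 2 libraries against 2, the smallest p of an exact two-sided permutation test is 0.333.

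**Figure D1:**
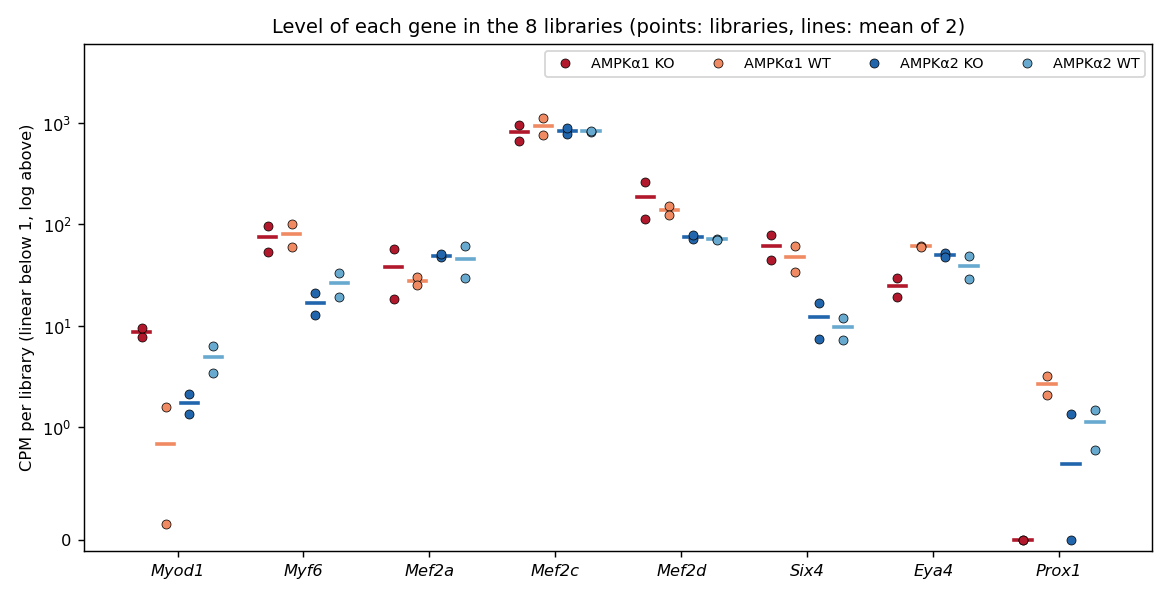
Level of each gene in the 8 libraries, in CPM (reads after TMM scaling over the 8 libraries, linear axis below 1 and logarithmic above). Points are libraries and lines are means of 2. Mef2c sits between 667 and 1115 CPM in every library, and Myod1 and Prox1 lie below 10 CPM.

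Myod1, a factor of activated satellite cells, had a single APS, 1 base before the annotated end of its gene. Its reads numbered 55 and 72 in AMPKα1 KO and 6 and 1 in AMPKα1 WT. In AMPKα2 KO it had 2 reads in each library, and in AMPKα2 WT 7 and 8. Both AMPKα1 KO libraries were above both WT libraries, and both AMPKα2 KO libraries were below both WT libraries. In CPM the means were 8.64 ± 1.24 (SD, n = 2) against 0.849 ± 1.01 in AMPKα1 and 1.73 ± 0.544 against 4.88 ± 2.09 in AMPKα2. The log2 fold change of 3.34 (SE 1.84) in AMPKα1 did not pass edgeR's test (adjusted p = 0.763). In AMPKα2 the summed reads of 4 against 15 gave a WT over KO ratio of 2.74 with an exact 95% counting interval of 0.874 to 11.4, and edgeR's adjusted p was 0.669. The difference between the KO effects was -4.86 on the log2 scale (SE 1.92, AMPKα2 minus AMPKα1), and it did not pass edgeR's test of the interaction (unadjusted p = 0.0308, adjusted p = 0.669).

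For comparison, the summed level of the satellite cell markers with reads, 4 of 6, was 40.8 and 36.2 CPM in AMPKα1 KO and 51.5 and 49.0 CPM in AMPKα1 WT, and 53.0 and 36.4 CPM in AMPKα2 KO and 29.7 and 39.0 CPM in AMPKα2 WT. The reads of single markers did not all lie on the same side in AMPKα1. Pax7, which marks quiescent satellite cells, had 101 and 0 reads in AMPKα1 KO and 20 and 0 in AMPKα1 WT. Vcam1 had 51 and 98 reads against 8 and 28, Cdh15 had 75 and 109 against 91 and 219, and Spry1 had 62 and 67 against 79 and 107. Whether a change in satellite cells goes with the Myod1 reads was not tested. In whole muscle, fewer cells of a type and less RNA per cell cannot be told apart.

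KO and WT libraries did not overlap for 3 of 8 members in AMPKα1 (Myod1, Eya4 and Prox1) and for 1 of 7 in AMPKα2 (Myod1). Over all genes tested the share without overlap was 32.4% in AMPKα1 and 39.6% in AMPKα2, so the members' counts lie near or below the background.

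Myf6, the myogenic factor of mature fibres, ended at the gene end. Its main APS, chr10:107492852, lies 1 base beyond the annotated end and held 91.7% to 100% of Myf6 reads in every library. It had 677 and 400 reads in AMPKα1 KO, 383 and 397 in AMPKα1 WT, 11 and 29 in AMPKα2 KO and 37 and 42 in AMPKα2 WT. In AMPKα2 the raw reads of KO lay below those of WT, whereas the CPM of the gene overlapped (12.7 and 20.9 against 18.96 and 33.4). Gene-level log2 fold changes were -0.12 (SE 0.50, edgeR adjusted p = 0.999) in AMPKα1 and -0.59 (SE 0.42, adjusted p = 0.737) in AMPKα2. The second Myf6 APS, chr10:107492416, took 0% to 8.33% of the reads.

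Mef2c, the MEF2 factor with most reads in this muscle, had 26428 reads over 38 APSs, more than the other 7 genes together. It had 4727 and 7194 reads in AMPKα1 KO, 4287 and 5465 in AMPKα1 WT, 734 and 1308 in AMPKα2 KO and 1660 and 1053 in AMPKα2 WT. The CPM overlapped between KO and WT in both models. In AMPKα2 the means were 830 ± 74.2 CPM in KO and 822 ± 21.5 CPM in WT. The log2 fold change was -0.24 (SE 0.38, edgeR adjusted p = 0.999) in AMPKα1 and 0.00 (SE 0.24, adjusted p = 1.00) in AMPKα2.

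In 7 of 8 libraries, fewer Mef2c reads came from its 3′ end than from elsewhere in the gene, and the second AMPKα1 WT library, with 59.5% at 3′ sites, was the exception. APSs in an annotated 3′ untranslated exon part or within 2 kb beyond the gene end are called 3′ sites here. They held 44.4% of Mef2c reads over the 8 libraries. The median over the 2168 protein coding genes with at least 1000 reads was 91.8%, and 19.4% of these genes had a lower share than Mef2c. A single APS in a 5′ untranslated exon part, chr13:83575632, held 12667 reads or 47.9% of the gene. It lies 91448 bases before the gene end, and its reads were clustered over chr13:83575581-83575975. Its window, printed above, holds 20 A among 30 bases, and 14 of the 30 transcript bases after the site are A. By the study's rule for A-rich stretches after a site, these bases are not A-rich. Those after Mef2c chr13:83662735 (15 A), Mef2d chr3:88172059 (16 A) and Prox1 chr1:190118260 (19 A) are A-rich by that rule. Those after Mef2c chr13:83663255 and Mef2d chr3:88169933 are not. Whether reads at any of these sites mark a true end of a transcript or priming within one was not tested.

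The 5′ exon APS had 2511 and 3808 reads in AMPKα1 KO, 2411 and 1817 in AMPKα1 WT, 304 and 634 in AMPKα2 KO and 725 and 457 in AMPKα2 WT. It was the strongest Mef2c APS in each of the 8 libraries. Its share of Mef2c reads was 53.1% and 52.9% in AMPKα1 KO and 56.2% and 33.2% in AMPKα1 WT, with exact 95% binomial intervals of 51.7% to 54.6%, 51.8% to 54.1%, 54.7% to 57.7% and 32.0% to 34.5%. In AMPKα2 the share was 41.4% and 48.5% in KO and 43.7% and 43.4% in WT. The AMPKα1 WT mice thus lay on either side of the KO mice, and AMPKα2 KO spanned AMPKα2 WT. Neither the reads (log2 fold change -0.21, SE 0.47, edgeR adjusted p = 1.00 in AMPKα1, and -0.08, SE 0.32, adjusted p = 0.966 in AMPKα2) nor the share of the gene (edgeR's test of site use, adjusted p = 1.00 in both models) passed the test.

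**Figure D2:**
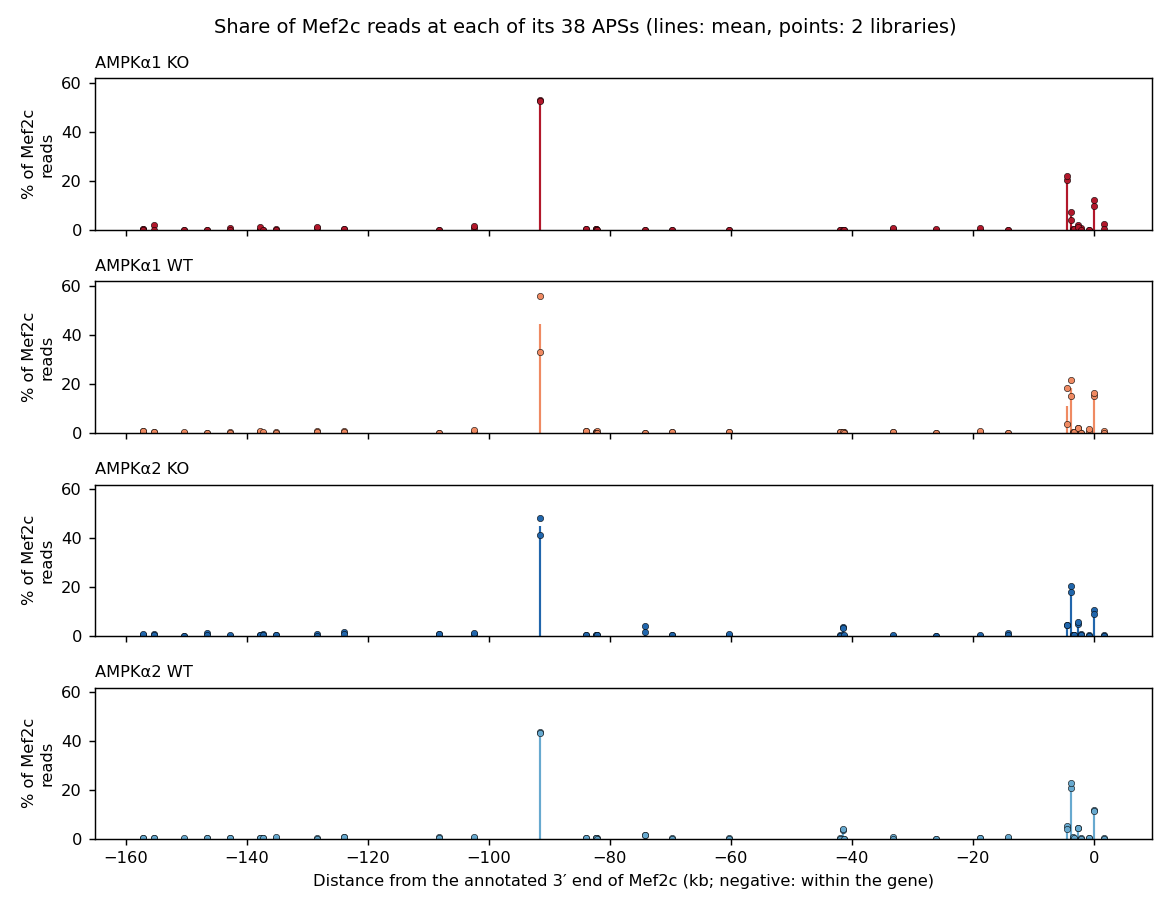
Share of Mef2c reads at each of its 38 APSs in the 4 groups, plotted by distance from the annotated 3′ end of the gene (kb). Lines are means of 2 libraries and points are libraries. The APS 91448 bases before the end is the tallest in each group, at 33.2% to 56.2% of the reads.

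Within the Mef2c 3′ untranslated part, a pair of neighbouring APSs took unlike shares. The upstream APS, chr13:83662735, had 965 and 1572 reads in AMPKα1 KO, 154 and 1000 in AMPKα1 WT, 32 and 59 in AMPKα2 KO and 90 and 44 in AMPKα2 WT. Its share of Mef2c reads was 20.4% and 21.9% in AMPKα1 KO, 3.59% and 18.3% in AMPKα1 WT, and 4.18% to 5.42% in the 4 AMPKα2 libraries. The first AMPKα1 WT library was thus near the AMPKα2 level and the second near the AMPKα1 KO level.

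The downstream APS of the pair, chr13:83663255, had the lowest unadjusted p of all member APSs in AMPKα1. It had 194 and 510 reads in AMPKα1 KO and 648 and 1172 in AMPKα1 WT, with both KO libraries below both WT libraries. Its share was 4.10% and 7.09% in AMPKα1 KO, 15.1% and 21.4% in AMPKα1 WT, and 17.9% to 22.7% in the 4 AMPKα2 libraries. The log2 fold change of its reads was -1.94 (SE 0.55, unadjusted p = 0.00284) in AMPKα1, which did not pass edgeR's test over all APSs (adjusted p = 0.543). It was -1.42 without the first KO library and -2.83 without the second. The log2 change of its share, relative to the gene, was -1.58 (edgeR adjusted p = 0.522). In AMPKα2, the KO libraries held 151 and 234 of its reads against 345 and 239 for WT, and the log2 fold change was -0.32 (SE 0.31, adjusted p = 0.819).

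**Figure D3:**
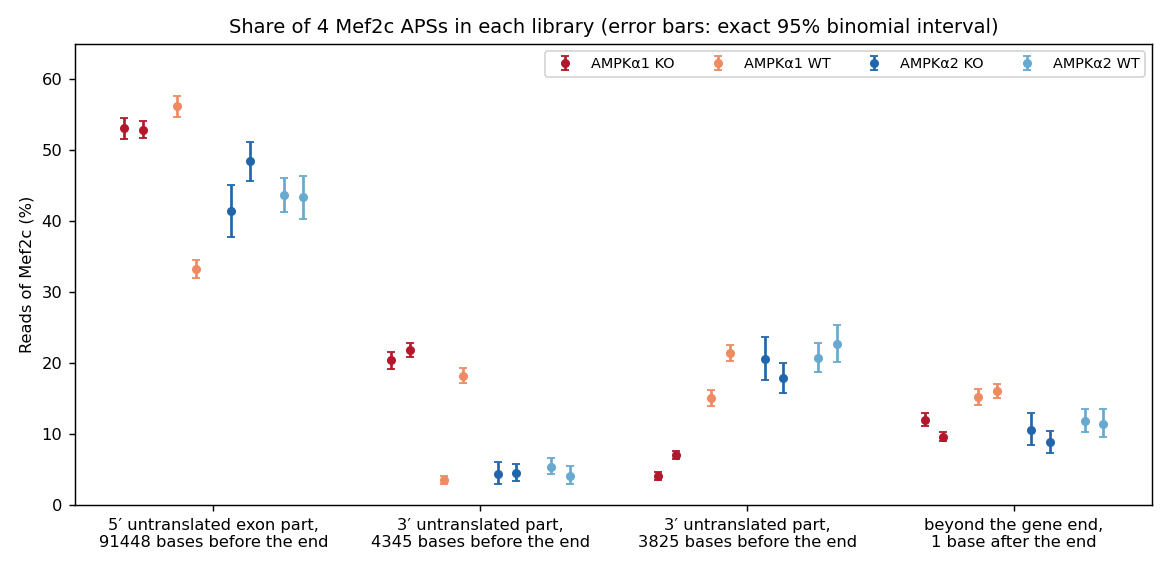
Share of Mef2c reads at 4 of its APSs in each library, with exact 95% binomial intervals as error bars. At the APS 3825 bases before the end, the AMPKα1 KO libraries sit at 4.10% and 7.09% and the other 6 libraries between 15.1% and 22.7%.

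The APS at the end of Mef2c, chr13:83667081, lies 1 base beyond the annotated gene. It took 9.70% to 12.1% of Mef2c reads in AMPKα1 KO, 15.3% and 16.1% in AMPKα1 WT, and 8.87% to 11.9% in the AMPKα2 libraries. Its reads were 571 and 698 in AMPKα1 KO and 654 and 879 in AMPKα1 WT. This APS and the pair described before held the most reads of the 10 Mef2c 3′ sites. Of the 38 APSs, 23 lie in introns and hold 6.49% of the reads.

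Mef2c chr13:83666344, 736 bases before the gene end and with the AATAAA shown above, was listed at 0 in both AMPKα1 KO libraries. The study chose this site on these same samples, so its direction is not independent evidence. It had 18 and 82 reads in AMPKα1 WT, 3 and 1 in AMPKα2 KO and 8 and 2 in AMPKα2 WT. The mean AMPKα1 WT level was 19.6-fold the limit of 3 reads per library in AMPKα1 KO. That value covers counting error alone and not the zeros between mice described below. The difference did not pass edgeR's test (unadjusted p = 0.0119, adjusted p = 0.543), whereas DESeq2 gave an adjusted p of 0.0929 and edgeR with all 8 libraries in the fit gave 0.0946. The coding exon APS chr13:83625562 was also at 0 in both AMPKα1 KO libraries, with 19 and 25 reads in AMPKα1 WT, 25 and 43 in AMPKα2 KO and 58 and 42 in AMPKα2 WT. Its mean AMPKα1 WT level was 10.2-fold the same limit (edgeR adjusted p = 0.543).

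Zeros of this kind were frequent between mice of the same AMPKα1 genotype. Of the 41 member APSs with at least 20 reads in 1 of the AMPKα1 KO libraries, 18 were at 0 in the other one, or 43.9%, and the share over all APSs was 51.3%. In AMPKα1 WT it was 7 of 39 member APSs, or 17.9%, with 25.4% over all APSs. In AMPKα2 KO and in AMPKα2 WT it was 0 of 12 member APSs, with 0.728% and 0.610% over all APSs.

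Mef2d, a MEF2 factor found in many tissues, ended mainly in its last exon, and its 3′ sites held 92.2% of 4586 reads. The main APS, chr3:88172059, 27 bases before the annotated end, had 1205 and 638 reads in AMPKα1 KO, 473 and 650 in AMPKα1 WT, 25 and 43 in AMPKα2 KO and 68 and 35 in AMPKα2 WT. An antisense gene, 1700113A16Rik, overlaps this site. The second APS, chr3:88169933, 2153 bases before the end, had 549 and 97 reads in AMPKα1 KO, 85 and 179 in AMPKα1 WT, 19 and 24 in AMPKα2 KO and 32 and 20 in AMPKα2 WT.

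The main APS took 65.5% and 75.7% of Mef2d reads in AMPKα1 KO and 81.0% and 72.2% in AMPKα1 WT. In the AMPKα2 model it took 37.3% and 36.8% in KO and 45.9% and 39.8% in WT, on 67 to 148 Mef2d reads per library. All 4 AMPKα2 libraries were below all 4 AMPKα1 libraries. Model, strain, age and library composition cannot be told apart in this difference. The second APS took 11.5% to 29.9% over the 8 libraries, with overlapping genotypes in both models.

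The Mef2d gene had a log2 fold change of 0.38 (SE 0.49, edgeR adjusted p = 0.985) in AMPKα1 and 0.07 (SE 0.26, adjusted p = 0.962) in AMPKα2. In AMPKα2 the KO mean was 75.0 ± 5.63 CPM and the WT mean 71.0 ± 1.39 CPM (SD, n = 2).

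Mef2a, another MEF2 factor, had 1124 reads spread over 17 APSs, and 29.0% of them came from its 3′ sites. Its strongest APS, chr7:67255068, is on the opposite strand and inside the gene Lysmd4, so its 298 reads, or 26.5%, may not belong to Mef2a transcripts. That site had 44 and 46 reads in AMPKα1 KO, 42 and 50 in AMPKα1 WT, 12 and 28 in AMPKα2 KO and 64 and 12 in AMPKα2 WT. The APS with most reads over the 8 libraries on the strand of the gene, chr7:67327561, is intronic. AMPKα1 gave most of these reads, and in AMPKα2 chr7:67316837 held more. The intronic APS had 52 and 21 reads in AMPKα1 KO, 10 and 33 in AMPKα1 WT, 1 and 2 in AMPKα2 KO and 3 and 2 in AMPKα2 WT.

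Summed over its APSs, Mef2a had 406 and 138 reads in AMPKα1 KO and 117 and 181 in AMPKα1 WT. AMPKα2 KO had 45 and 75 and AMPKα2 WT 125 and 37. Genotypes overlapped in both models. Its log2 fold change was 0.40 (SE 0.65, edgeR adjusted p = 0.999) in AMPKα1 and 0.09 (SE 0.36, adjusted p = 0.965) in AMPKα2. The AMPKα1 value turned to -0.55 when only the strongest APS, the antisense one, was counted. With only APSs on the gene strand counted, the values were 0.71 in AMPKα1 (edgeR adjusted p = 0.948) and 0.40 in AMPKα2 (adjusted p = 0.792).

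**Figure D4:**
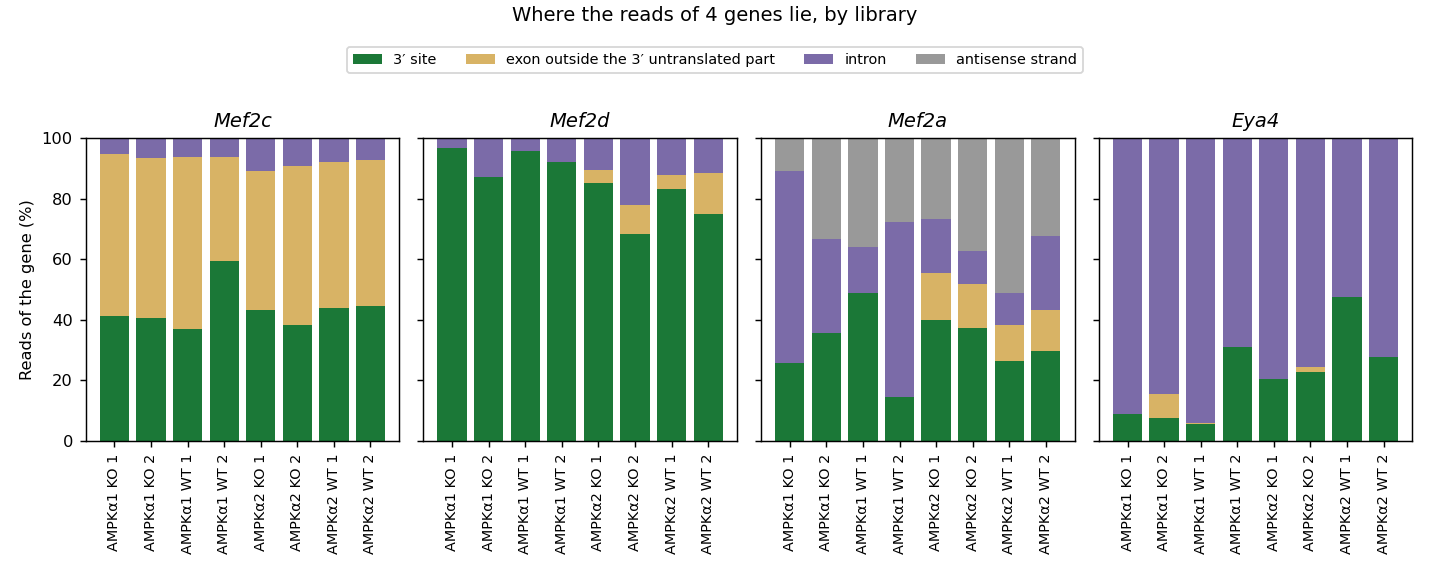
Share of the reads of Mef2c, Mef2d, Mef2a and Eya4 by where the APS lies, for each of the 8 libraries (%). 3′ sites hold 68.4% to 96.6% of Mef2d reads and 5.51% to 47.5% of Eya4 reads, and the Mef2a antisense APS holds 10.8% to 51.2%.

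Six4, a homeodomain factor that binds MEF3 elements, had both of its APSs in the 3′ untranslated part. The main APS, chr12:73099609, at the annotated gene end, had 535 and 338 reads in AMPKα1 KO, 130 and 431 in AMPKα1 WT, 6 and 23 in AMPKα2 KO and 14 and 14 in AMPKα2 WT. It held 85.7% to 100% of Six4 reads in every library. KO and WT overlapped in both models. Summed over both APSs, the Six4 gene had a log2 fold change of 0.33 (SE 0.53, edgeR adjusted p = 0.999) in AMPKα1 and 0.41 (SE 0.52, adjusted p = 0.881) in AMPKα2.

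Eya4, a coactivator of Six4 and its relatives, had 23 APSs with 1269 reads, and 79.0% of the reads lay in introns. The gene had 135 and 225 reads in AMPKα1 KO and 236 and 434 in AMPKα1 WT, and both KO libraries were below both WT libraries in CPM (24.4 ± 7.54 against 60.7 ± 0.896, SD, n = 2). AMPKα2 KO had 49 and 70 and AMPKα2 WT 59 and 61, with overlapping CPM. The log2 fold change was -1.34 (SE 0.49, unadjusted p = 0.0321) in AMPKα1, which did not pass edgeR's test (adjusted p = 0.763), and 0.36 (SE 0.33, adjusted p = 0.807) in AMPKα2. The effects differed by 1.68 on the log2 scale (SE 0.59, AMPKα2 minus AMPKα1), and this did not pass edgeR's test of the interaction (unadjusted p = 0.0186, adjusted p = 0.601).

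The Eya4 APS with most reads over the 8 libraries, chr10:23304838, is intronic, whereas in AMPKα2 chr10:23182854 held the most. The former had 33 and 5 reads in AMPKα1 KO, 60 and 83 in AMPKα1 WT, 8 and 3 in AMPKα2 KO and 5 and 1 in AMPKα2 WT. Its log2 fold change was -2.54 (SE 1.39, edgeR adjusted p = 0.543) in AMPKα1 and 1.27 (SE 0.95, adjusted p = 0.756) in AMPKα2. The AMPKα1 value was -4.44 without the first KO library and -1.78 without the second. The APS 1 base beyond the gene end, chr10:23102962, had 0 and 17 reads in AMPKα1 KO and 12 and 120 in AMPKα1 WT.

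That gene-end APS took 0% and 7.56% of Eya4 reads in AMPKα1 KO, and its mean share in AMPKα1 WT was 16.4% ± 16.0 (SD, n = 2), so the genotypes did not separate beyond the spread of WT. The intronic APS chr10:23217401 went the other way in AMPKα1, since the KO libraries held 34 and 33 of its reads against 6 and 0 for WT, and its share did not pass the test of site use (log2 change 3.88, edgeR adjusted p = 0.682).

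Prox1 had 1 APS, chr1:190118260, within its 3′ untranslated part and with 37 reads in all. It had 0 and 0 reads in AMPKα1 KO, 8 and 23 in AMPKα1 WT, 0 and 2 in AMPKα2 KO and 3 and 1 in AMPKα2 WT. The mean AMPKα1 WT level was 6.42-fold the limit of 3 reads per library in AMPKα1 KO, a value that covers counting error alone. The difference did not pass edgeR's test (adjusted p = 0.763). No fold is given for AMPKα2, where all libraries were at or under the limit. The lymphatic endothelial markers with reads, 3 of 5, summed to 14.97 and 20.2 CPM in AMPKα1 KO and 8.06 and 8.86 CPM in AMPKα1 WT, and Pdpn and Ccl21a were at 0 in every library. In AMPKα2 the sums were 31.8 and 22.9 CPM in KO and 45.7 and 31.0 CPM in WT. By marker, Lyve1 had 30 and 65 reads in AMPKα1 KO and 21 and 1 in AMPKα1 WT. Flt4 had 22 and 25 against 2 and 28, and Reln had 54 and 63 against 8 and 35. The part of lymphatic endothelium in the Prox1 reads was not tested.

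**Figure D5:**
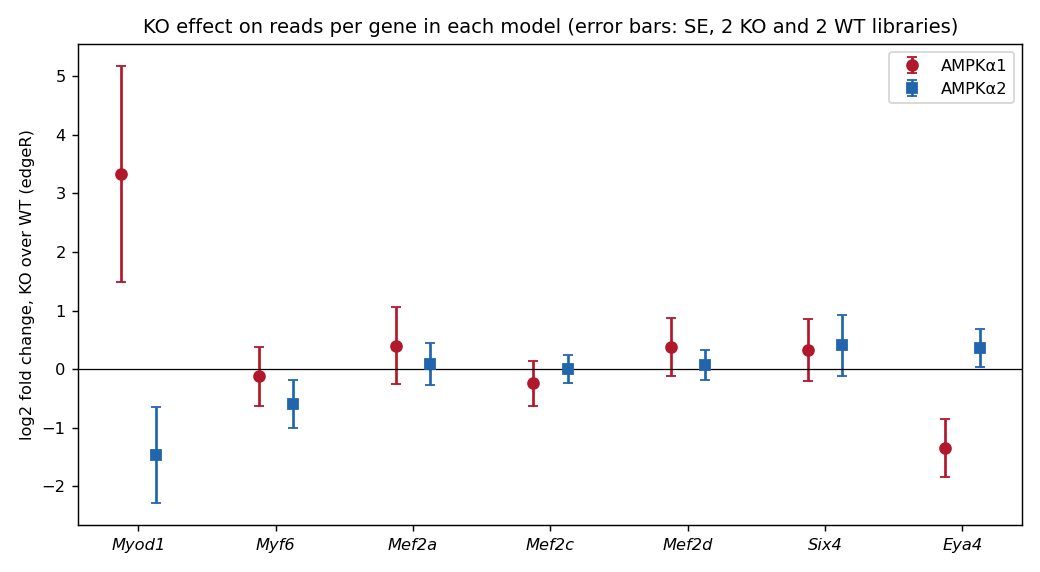
Log2 fold change of KO over WT for 7 genes in each model, from edgeR's gene-level fit, with SE as error bars (2 KO and 2 WT libraries per model). Myod1 stands at 3.34 in AMPKα1 and -1.46 in AMPKα2, and Eya4 at -1.34 and 0.36, and the other 5 genes lie between -0.59 and 0.41. Prox1 is left out because it has no read in AMPKα1 KO.

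At the level of single APSs, 77 member APSs were tested in AMPKα1 and 37 in AMPKα2. None passed edgeR's test, where 0.00454% of all APSs tested were called in AMPKα1 and 0.056% in AMPKα2. At an unadjusted p under 0.05 edgeR named 2 member APSs in AMPKα1, the Mef2c sites chr13:83663255 and chr13:83666344, and 0 in AMPKα2. These are 2.60% and 0% of the member APSs tested, below the 3.07% and 7.59% of all APSs tested. DESeq2 called 1 in AMPKα1, chr13:83666344, and 0 in AMPKα2, where it called 0.442% and 0.192% of all APSs with a read. It gave no adjusted p for some member APSs in AMPKα2, among them the main Myf6 APS. At an unadjusted p under 0.05 it named 5 and 0, where it named 5.45% and 1.71% of all APSs. The median log2 fold change of the member APSs was -0.29 in AMPKα1 and 0.06 in AMPKα2, beside 0.02 and 0.01 over all APSs tested.

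For the share of an APS within its gene, 0 of 75 member APSs tested in AMPKα1 and 0 of 34 in AMPKα2 passed edgeR's test of site use. Over all APSs tested, 0.00601% were called in AMPKα1 and 0.143% in AMPKα2. At an unadjusted p under 0.05, 1 member APS was named in AMPKα1, Mef2c chr13:83666344, and 0 in AMPKα2, beside 2.38% and 3.39% of all APSs tested.

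The test of a difference between the KO effects of AMPKα1 and AMPKα2, edgeR's interaction, was passed by 0 of 8 members, where 0.0586% of all 15349 genes were called. Myod1 and Eya4 were the 2 members with an unadjusted p under 0.05, a level that 6.93% of all genes reached. DESeq2 called 0 members, where it called 1.12% of all genes, and it also named Myod1 and Eya4 at the unadjusted level, which 6.55% of all genes reached.

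Some member APSs were read in one model and not in the other. Of the 27 member APSs with at least 20 reads in AMPKα2, 9 were at 0 in all 4 AMPKα1 libraries, or 33.3%, and the share over all APSs was 33.7%. Conversely 4 of 70 member APSs with at least 20 reads in AMPKα1, or 5.71%, were at 0 in all 4 AMPKα2 libraries, and the share over all APSs was 15.2%. The reads that follow are summed over the 4 libraries of a model. The Mef2d coding exon APS chr3:88158305 had 33 of the Mef2d reads in AMPKα2, or 7.86%, and 0 of 4166 in AMPKα1. The Mef2a coding exon APS chr7:67316837 had 38 reads in AMPKα2, or 13.5%, and 0 of 842 in AMPKα1. An intronic Eya4 APS, chr10:23182854, had 68 reads in AMPKα2, or 28.5%, and 0 of 1030 in AMPKα1. No upper limit is given for the AMPKα1 shares, since zeros were frequent between AMPKα1 mice of the same genotype. The differences between the models in strain, age and library composition cannot be told apart in these values.

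In order of level, Mef2c came first and Mef2d second in every group, and the 2 libraries of each did not overlap with those of the next gene. In AMPKα1 KO, the neighbours Myf6, Six4, Mef2a and Eya4 overlapped in turn, and Myod1 (8.64 CPM) and Prox1 followed apart from them. In AMPKα1 WT, Myf6, Eya4 and Six4 overlapped, and Myod1 (0.849 CPM) came last. In AMPKα2, Mef2a and Eya4 overlapped in both genotypes and stood above Myf6 and Six4 by their means. This order counts the antisense APS of Mef2a, which held 41.1% of Mef2a reads in AMPKα2 and may not belong to its transcripts. Mef2c lay above 98.6% of the 9962 genes with at least 100 reads in AMPKα2 KO and above 99.5% in AMPKα1 KO.

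Between the models the size of the difference depended on the scaling, and for Mef2a and Eya4 its direction did too. In AMPKα2, Mef2a, with its antisense APS counted, was 1.38 lower by library totals and 0.59 higher by TMM, and Eya4 was 1.81 lower and 0.17 higher. By library totals the mean log2 level of Mef2c, with 1 CPM added, was 2.08 lower in AMPKα2 than in AMPKα1, and by TMM over the 8 libraries it was 0.05 lower. Six4 was 4.11 lower by totals and 2.23 lower by TMM, and Myf6 was 3.76 and 1.82 lower. All genes with at least 100 reads had a median of -1.69 by totals and 0.06 by TMM. Six4, Myf6 and Mef2d (3.06 and 1.06 lower) lay below the median gene on both scales, and so did Mef2c by a smaller margin.

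Other regulators of the same pathways were counted from 7 lists, with 75 genes tested in AMPKα1 and 65 in AMPKα2. None passed edgeR's test in either model, and 8 and 7 genes had an unadjusted p under 0.05, a level that 4.23% and 8.45% of all genes tested reached. Among E proteins and their inhibitors, Id2, which binds E proteins and keeps them from DNA, had 0 and 3 reads in AMPKα1 KO and 78 and 111 in AMPKα1 WT (edgeR adjusted p = 0.763), and 0 of 10 genes tested in AMPKα1 passed. Tcf3, an E protein partner of Myod1, was the gene with the lowest p of 6 tested in AMPKα2 (log2 fold change 1.11, adjusted p = 0.630).

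Of the other myogenic regulators, 0 of 7 passed in AMPKα1 and 0 of 4 in AMPKα2. Mstn, which encodes the growth inhibitor myostatin, had 73 and 176 reads in AMPKα2 KO and 106 and 58 in AMPKα2 WT (log2 fold change 0.99, SE 0.29, edgeR adjusted p = 0.304), and Srf had the lowest p in AMPKα1 (-0.62, adjusted p = 0.919). Of the other genes of the Six4 and Eya4 families, 0 of 7 passed in each model. Eya3 had 126 and 222 reads in AMPKα1 KO and 26 and 45 in AMPKα1 WT (log2 fold change 1.83, SE 0.72, adjusted p = 0.763). Eya2 led in AMPKα2 (1.21, adjusted p = 0.609).

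Among MEF2 cofactors and class IIa histone deacetylases, 0 of 15 passed in AMPKα1 and 0 of 13 in AMPKα2. Mapk14, the p38α kinase that phosphorylates MEF2 factors, had 175 and 177 reads in AMPKα1 KO and 28 and 43 in AMPKα1 WT (log2 fold change 1.83, SE 0.68, edgeR adjusted p = 0.763). AMPKα2 KO had 1 and 0 reads and AMPKα2 WT 12 and 7 (edgeR adjusted p = 0.319).

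Of the regulators of fibre type, 0 of 14 passed in each model. Maf, which acts on fast fibre genes, had 666 and 829 reads in AMPKα1 KO and 980 and 1712 in AMPKα1 WT (log2 fold change -1.30, SE 0.37, edgeR adjusted p = 0.763). Ppargc1a, the coactivator of mitochondrial genes, had 89 and 93 reads in AMPKα2 KO and 86 and 54 in AMPKα2 WT (0.87, SE 0.30, adjusted p = 0.416).

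Of the muscle target genes, 0 of 14 passed in each model, with a median log2 fold change of -0.56 in AMPKα1 and 0.23 in AMPKα2. Myh7, the slow myosin heavy chain, had the lowest p of this list in both models. It had 8421 and 5128 reads in AMPKα1 KO against 1220 and 2273 in WT (log2 fold change 1.52, SE 0.39, edgeR adjusted p = 0.763). In AMPKα2 it had 1607 and 2474 reads in KO against 862 and 1136 in WT (1.34, SE 0.35, adjusted p = 0.251). Of the denervation and regeneration genes, 0 of 8 passed in AMPKα1 and 0 of 7 in AMPKα2. Musk had the lowest p in AMPKα1 (1.47, adjusted p = 0.763), and Myh3, the embryonic myosin, had it in AMPKα2 (1.44, adjusted p = 0.380).

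The genes whose profile over the 8 libraries was most like that of a member were found by the root mean square difference of centred log2(CPM + 1) values among the 9962 genes with at least 100 reads. For Mef2c these were Tmem11 (0.0996), Lcmt1 (0.104) and Creld1 (0.112), where the median gene differed by 0.853. For Mef2d they were Ggnbp2 (0.107), Mia3 (0.157) and Pcbp2 (0.169), with 0.980 for the median gene. For Myf6 they were Zswim8 (0.240), Acbd5 (0.264) and Emg1 (0.290), with 1.25 for the median gene.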

How the data were processed

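WTTS-seq reads of 8 libraries were processed by the authors, who trimmed them, mapped them to GRCm38.p5, grouped nearby read ends into APSs and assigned these to genes. The deposited values are raw counts of reads per APS, not normalized, for APSs with at least 16 reads in all. APSs without a gene (6700, with 9.33% of reads) stayed in library totals.

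Reads were summed per gene. Within each model, edgeR 4.0.16 tested KO against WT (R 4.3.3; TMM, robust quasi-likelihood fit, at least 16 reads, Benjamini-Hochberg adjusted p under 0.1), at gene and APS level, for the share of an APS in its gene (diffSpliceDGE), and as an interaction over 8 libraries. Standard errors come from the F statistic. DESeq2 1.42.0, the authors' tool, was an alternative. Depth was 2311242 to 3549156 reads per library. Code was tested on simulated data with 200 features changed, among features with at least 50 reads. At 4-fold, edgeR recovered 21 genes, 1 APS and 0 APSs in site use in AMPKα1, and 156, 83 and 56 in AMPKα2. At 16-fold it recovered 79, 45 and 3 in AMPKα1. DESeq2 recovered 38 genes at 4-fold in AMPKα1, with 78 false calls. A lack of calls in AMPKα1 therefore says little about changes of these sizes, least of all in site use.

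Locations and bases come from GENCODE release 21. Named are all members, each member's strongest APS, APSs called, those with the lowest p in each model, the Mef2c APS on the study's list, list genes called or else with the lowest p, the 3 nearest profiles of the 3 members with most reads, and the targeted genes. APSs at 0 in one model, and other Mef2c, Mef2d, Mef2a and Eya4 sites, were named after their values were seen. Members and lists were chosen with earlier results of these data known. Mice within a group are separate animals. Same-numbered KO and WT libraries come from different mice.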

Additional observations from a re-analysis of the deposited data

How the results depend on the processing

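At gene level, for site use and for the interaction, 0 members were called under every alternative run. At APS level in AMPKα1 the 0 calls became 1 (Mef2c chr13:83666344) with DESeq2 and 2 (with Mef2c chr13:83625562) with all 8 libraries in the fit, and stayed 0 without any 1 library. The cause was not tested. The replicate block changed no call of a member. Same-numbered KO and WT libraries come from different mice, and their deviations correlated at 0.0492 in AMPKα1 and -0.0127 in AMPKα2. With the replicate block the calls over all features went from 51 to 87 (genes) and from 13 to 519 (APSs) in AMPKα2, from 2 to 1 for site use in AMPKα1 and from 9 to 0 for the interaction. It turned the AMPKα2 value of Mef2c to -0.0018 and the Six4 difference of effects from 0.03 to -0.086.

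Log2 fold changes near 0 changed sign with the setting. Library totals alone put the median of all genes at 0.22 in AMPKα1 (-0.03 by TMM), -0.17 in AMPKα2 (-0.01) and -0.33 for the interaction (0.04), and that of all AMPKα1 APSs at 0.38 (0.02, and 0.15 by RLE factors). Beside these medians, Myf6 and Mef2c stood at 0.15 and 0.051 in AMPKα1, Mef2a, Mef2c and Mef2d at -0.10, -0.15 and -0.091 in AMPKα2, the Mef2c 5′ exon APS and the Myf6 main APS at 0.27 and 0.18 in AMPKα1, and the differences of effects of Mef2c and Six4 at -0.20 and -0.20. The strongest APS alone gave -0.55 (Mef2a, AMPKα1), and -0.37 (Mef2a) and -0.11 (Mef2d) in AMPKα2. In AMPKα2, Mef2c was at -0.012 without a filter, -0.013 with at least 50 reads, and, in settings added after the data were seen, -0.052 from 3′ sites and -0.041 without its 5′ exon APS, and Eya4 at -0.29 from 3′ sites. All 8 libraries put the Mef2c 5′ exon APS at 0.032 in AMPKα2. The Six4 difference was -0.018 by RLE factors and -0.019 by DESeq2.

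Leaving out each library in turn, AMPKα1 values ran from -0.60 to 0.31 (Myf6), -0.61 to 0.99 (Mef2a), -0.55 to 0.073 (Mef2c), -0.32 to 0.85 (Mef2d) and -0.10 to 0.85 (Six4), and AMPKα2 values from -0.33 to 0.72 (Mef2a), -0.079 to 0.072 (Mef2c) and -0.33 to 0.82 (Six4). Main APSs in AMPKα1 ran from -0.73 to 0.68 (Mef2c 5′ exon), -0.47 to 0.43 (Mef2d), -0.69 to 0.32 (Myf6) and -0.17 to 0.62 (Six4), and in AMPKα2 from -1.12 to 0.59 (Mef2a antisense), -0.32 to 0.14 (Mef2c 5′ exon) and -0.63 to 0.70 (Six4). Differences of effects ran from -1.06 to 0.60 (Mef2a), -0.15 to 0.48 (Mef2c), -0.95 to 0.28 (Mef2d) and -0.72 to 0.47 (Six4). Myod1 (2.46 to 5.77) and Eya4 (-1.73 to -1.04) in AMPKα1 and Eya4 in AMPKα2 (0.012 to 0.76) kept their signs in these 4 fits each. Myod1 in AMPKα2 could be fitted only without either KO library (-1.76 to -1.11), since fewer than 16 reads remained without a WT library. A group left with 1 library is assumed to vary like the others.

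Calls over all features moved by more than 1.5 times. Genes called went from 0 to 115 (DESeq2) or 83 (all 8 libraries) in AMPKα1, and from 51 to between 4 (all 8 libraries) and 374 (no filter) in AMPKα2, with 151 by library totals (65 higher and 86 lower, against 27 and 24). AMPKα1 APSs called went from 2 to between 0 (at least 50 reads) and 432 (all 8 libraries), with 18 higher and 30 lower by library totals against 0 and 2, and with 170 without the second WT library. AMPKα2 APSs went from 13 to between 0 (without the second WT library) and 557 (no filter), with 15 higher and 27 lower by library totals against 6 and 7. Site use went from 2 to between 0 and 2 in AMPKα1 and from 21 to between 1 (without the second WT library) and 53 (without the second KO library) in AMPKα2. The interaction went from 9 (6 higher and 3 lower) to 6 by RLE factors (5 and 1), 1 by library totals (0 and 1) and 497 without the first AMPKα1 KO library. Precision is limited by 2 mice per group and by low counts, since 37 of 95 member APSs had enough reads for a test in AMPKα2.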
